A study of Rattus norvegicus with 32 samples.

Results

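The 10 genes described here are the AP-1 family members Fos, Fosb, Fosl1, Fosl2, Jun, Junb and Jund together with Egr1, Atf3 and Ier3, measured in rat left ventricle. They were chosen by gene name, as the probes annotated with these symbols on the array, and make up 10 of the 27963 named genes that the array carried. All 10 were among the 16815 named genes with a probe well above background in at least 1 group. None of the 10 genes passed the test between sham rats, septic rats and septic rats given landiolol, in either sex. In males, 7 of the 10 spread more between hearts of a group than the median gene did, a count not far from an even split. In 1 female sham heart 9 of the 10 were lower than in any other female heart. All 10 spread more than the median gene in females with that heart, and 4 of 10 did without it.

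AP-1 is a family of dimers built from FOS and JUN proteins that binds short DNA sites and switches on genes of growth, stress and inflammation. FOS proteins need a JUN partner to bind DNA, whereas JUN proteins also pair with each other. Most genes of this group are immediate early genes: their promoters are held ready, transcription starts within minutes of a stimulus without new protein synthesis, and the mRNAs are short-lived. In the heart they are known to respond to stretch, adrenergic drive, ischaemia and reperfusion. EGR1 is a zinc finger factor of the same early wave, ATF3 is a stress-induced member of the basic leucine zipper (bZIP) proteins to which FOS and JUN also belong, and IER3 is a stress-inducible regulator of cell survival rather than a DNA-binding factor.

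The rats were Wistar males and females of 9 to 12 weeks. Sham groups had surgery without sepsis, CLP groups had caecal ligation and puncture, which leaks gut bacteria into the abdomen, and CLP plus landiolol groups had the same puncture and then landiolol, a short-acting beta1-adrenergic blocker, at 0.1 mg/kg/min from 1 h onwards. The other rats received saline, and no rat received antibiotics. Each sex had 5 sham, 5 CLP and 6 CLP plus landiolol rats, 1 left ventricle and 1 array per rat, so each array is a separate animal. All groups shared buprenorphine, magnetic resonance imaging at 18 h, perfusion of the isolated heart on a Langendorff apparatus and freezing at 20 h, and RNA of an integrity number above 8. By the study's methods the levels are those of perfused hearts. The labels do not record how each single heart was handled, and the part of the imaging and perfusion was not tested.

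Levels are given as log2 intensity after quantile normalisation within a sex, and differences between groups on the same log2 scale, where 1 is a doubling. Males and females lay on different slides, so that a difference in level between the sexes cannot be told apart from a slide. In bulk tissue, fewer cells of a type and less RNA per cell cannot be told apart either. Arrays of a group correlated with each other at a mean Pearson r of 0.965 to 0.982 in males and 0.951 to 0.979 in females over the probes kept, and no spot of the 10 genes was saturated. Ventricular cardiomyocyte markers (all 7 of 7 measured) averaged 17.00 to 17.83 in every heart. Neutrophil markers moved with sepsis: the mean level of S100a8 and S100a9 was 3.02 to 3.82 in male sham, 5.64 to 8.52 in male CLP and 6.87 to 8.67 in male CLP plus landiolol hearts. In females it was 2.64 to 4.50, 5.87 to 7.62 and 6.27 to 9.05 in the same order, while the other 3 of the 5 neutrophil markers (Csf3r, Cxcr2 and Mpo) were not kept. The sham levels lay around the lowest level measured above background on the array of female sham replicate 1, 3.45. The size of these rises is therefore uncertain. Of the fibroblast markers 1 of 5 rose and 2 fell in male CLP against sham, and 1 of 7 macrophage markers rose in CLP against sham in each sex. Of all named genes 8.88% were called there in males and 4.21% in females. In CLP plus landiolol against sham, 1 of 5 fibroblast markers rose in males and 1 of 5 endothelial markers in females. In each sex 1 of 7 macrophage markers rose there, beside 4.83% of named genes called in males and 6% in females. The part of these cells in the results below was not tested.

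The probes of 9 genes have a position in the array's annotation, on the rat genome build rn4. The Fos probe lies at chr6:109561941-109562000, the Fosb probe at chr1:78666646-78666705 and the Fosl1 probe at chr1:208099035-208099094. The Jun probe lies at chr5:115358764-115358823, the Junb probe at chr19:24832781-24832840 and the Jund probe at chr16:19239707-19239766. The Egr1 probe lies at chr18:27347173-27347232, the Atf3 probe at chr13:107191582-107191614 and the Ier3 probe at chr20:3076832-3076891. The Fosl2 probe has no position there, and the annotation does not say which exon or untranslated region a probe falls in. The Fosl1 probe was well above background on 30 of 32 arrays (not in female sham replicate 1 and female CLP plus landiolol replicate 4) and each of the other 9 on all 32. Jun, Jund and Egr1 have 1 more probe each and Fosl2 has 2 more, which share 1 sequence.

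RefSeq promoters of the GRCr8 assembly were at hand for 6 of the 10 genes (Fosb, Fosl1, Fosl2, Junb, Jund and Egr1). The 250 bases before the start were searched on both strands for the sites through which immediate early genes are classically switched on or regulate each other. The Egr1 and Jund promoters are shown because they were the ones that held any of these letters, in capitals. Egr1 carries 2 CArG boxes, the site of serum response factor, at -105 to -96 and -83 to -74 from the start. Jund carries a cyclic AMP response element (CRE), TGACGTCA, at -221 to -214 and an EGR site, GCGTGGGCG, at -76 to -68.
Egr1, chr18:26736828-26737077, plus strand: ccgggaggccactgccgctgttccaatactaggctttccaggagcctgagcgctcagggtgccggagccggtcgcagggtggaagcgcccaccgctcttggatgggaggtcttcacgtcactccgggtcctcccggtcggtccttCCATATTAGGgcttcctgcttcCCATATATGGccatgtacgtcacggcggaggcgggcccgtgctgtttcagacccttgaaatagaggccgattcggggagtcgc
Jund, chr16:18769772-18770021, minus strand: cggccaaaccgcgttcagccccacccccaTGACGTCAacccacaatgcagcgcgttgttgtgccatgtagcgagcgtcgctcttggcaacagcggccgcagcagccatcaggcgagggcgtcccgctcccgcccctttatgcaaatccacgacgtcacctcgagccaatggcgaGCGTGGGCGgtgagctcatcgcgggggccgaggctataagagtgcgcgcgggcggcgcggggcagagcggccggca
Among 27457 rat promoters of this length, 1.5% held a CArG box, 1.7% this CRE, 6.36% an AP-1 site (TGANTCA), 6.41% an NF-kappaB site and 0.514% this EGR site. The promoter entries used for Fosb, Fosl1, Fosl2 and Junb held none of the 5 within the window. Where a gene had several promoters, the first entry was used and its other starts were not searched. These matches describe letters only.

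CLP against sham asks what sepsis did to the heart. In males, 0 of the 10 genes passed limma's test at an adjusted p under 0.01, against 8.88% of all named genes. At an unadjusted p under 0.05 there were 3 of 10 (Junb, Jund and Fosl2), against 30.2% of named genes. For 2 of 10 (Junb and Jund) the 5 CLP hearts lay wholly outside the range of the 5 sham hearts, against 13.5% of named genes. The 10 genes were split by sign, 5 higher and 5 lower in CLP, with a median difference of 0.05, beside -0.01 over all named genes.

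**Figure D1:**
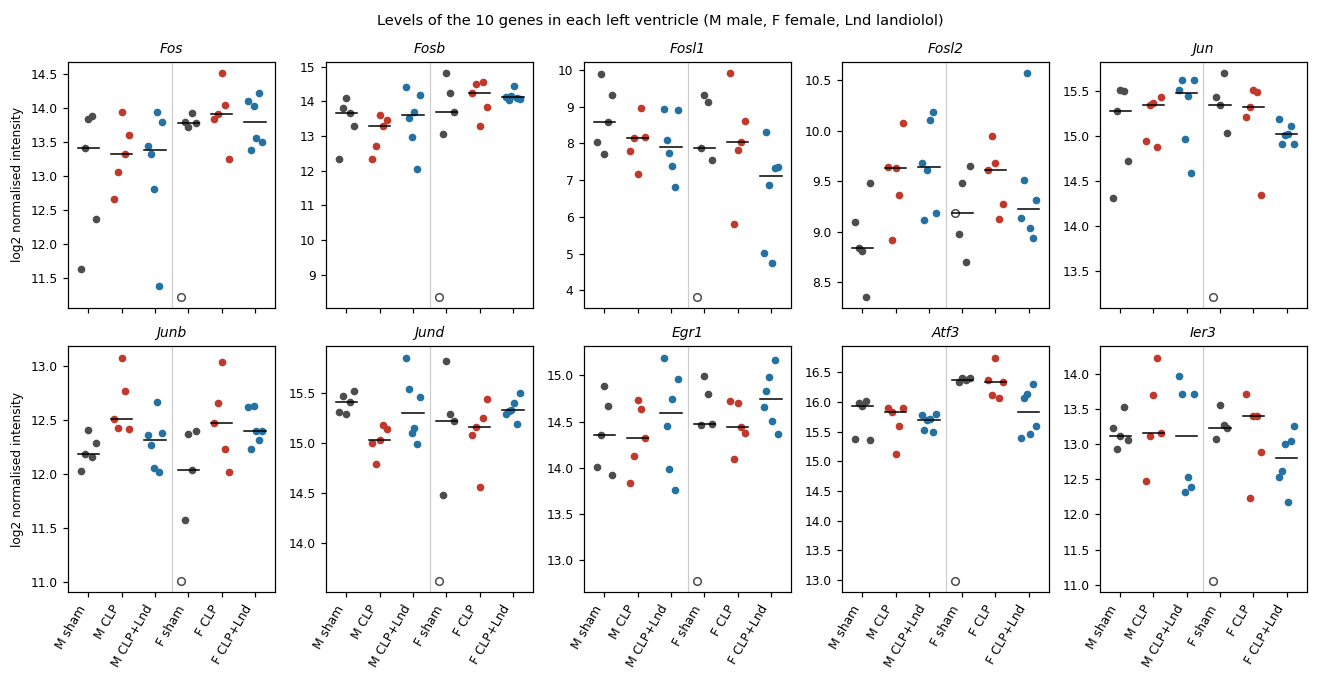
Log2 normalised intensity of the 10 genes (vertical axes, 1 scale per gene) in each of the 32 left ventricles, by group. Each point is 1 heart, black lines are group medians and the open circle is female sham replicate 1, which lies at 11.23 for Fos and 8.37 for Fosb. Within each sex the groups overlap for every gene apart from Junb and Jund in male CLP against male sham, for the probes shown.

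Fos, the prototype FOS gene, varied widely among males. The 5 male sham hearts read 11.63, 13.41, 13.84, 13.88 and 12.36, and the 5 male CLP hearts 12.66, 13.05, 13.94, 13.32 and 13.59. The male CLP plus landiolol hearts ran from 11.38 through a median of 13.38 to 13.93. The spread within sham alone exceeded any difference between the groups, and the CLP hearts lay inside the sham range apart from 1 just above it. The CLP minus sham difference was 0.29 (SE 0.49, 95% interval -0.76 to 1.34, adjusted p = 0.771), an interval that includes a doubling. Fosb, its close relative, read 12.32, 13.81, 14.08, 13.67 and 13.28 in male sham and 12.33, 12.71, 13.61, 13.28 and 13.45 in male CLP, a difference of -0.36 (95% interval -1.25 to 0.54). Fosl1, which encodes FRA1, differed by -0.66 (95% interval -1.66 to 0.34).

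Fosl2 encodes FRA2, a FOS protein that is made later and lasts longer than FOS. In male sham it read 9.10, 8.84, 8.81, 8.35 and 9.48, and in male CLP 9.64, 8.92, 9.63, 9.37 and 10.08. Of the CLP hearts, 3 lay above every sham heart and the other two within the sham range. The difference was 0.61 (1.53-fold, SE 0.26, 95% interval 0.06 to 1.16), with an adjusted p of 0.128. The other two probes, which have the same sequence as each other, gave 0.81 and 0.73 (adjusted p = 0.108 and 0.168).

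Of the JUN genes, Junb was higher and Jund lower in every male CLP heart than in the sham hearts, without passing the adjusted test. Junb encodes a JUN protein that can restrain JUN. It read 12.03, 12.19, 12.41, 12.17 and 12.29 in sham and 12.52, 12.43, 13.08, 12.77 and 12.42 in CLP. The lowest CLP heart was barely above the highest sham heart, and the difference was 0.42 (1.34-fold, SE 0.15, 95% interval 0.11 to 0.74, adjusted p = 0.0678). Jund, the JUN gene that most resting tissues express steadily, read 15.31, 15.47, 15.29, 15.40 and 15.51 in sham and 15.00, 14.79, 15.02, 15.18 and 15.14 in CLP. Its difference was -0.37 (0.773-fold, SE 0.15, 95% interval -0.69 to -0.06, adjusted p = 0.106), and the other Jund probe gave -0.41 (adjusted p = 0.180) with groups that overlapped, 10.20 to 10.63 in sham and 9.74 to 10.55 in CLP. Jun itself differed by 0.13 (95% interval -0.41 to 0.66).

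Within each of the 2 male slides the direction of these 3 genes was the same as over both. For Junb and Jund no other sign was possible, because their CLP and sham hearts did not overlap. Fosl2 was picked by its unadjusted p in these same hearts, so the slides give no separate support. Junb differed by 0.56 on slide 1 (3 CLP and 2 sham hearts) and 0.30 on slide 2 (2 and 3 hearts). Jund differed by -0.46 and -0.24, and Fosl2 by 0.43 and 0.84. Of the 10 genes, 7 had the same sign on both slides, Junb and Jund among them. The same share over all named genes was not computed.

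Egr1, Atf3 and Ier3 gave small male differences. Atf3 had the narrower spread: 15.38, 15.97, 15.94, 16.02 and 15.36 in sham and 15.90, 15.83, 15.12, 15.60 and 15.89 in CLP, overlapping throughout. Its difference was -0.07 (95% interval -0.43 to 0.30), an interval that leaves out a doubling or a halving. Egr1 differed by -0.03 (95% interval -0.62 to 0.55), with 0.12 at its other probe, and Ier3 by 0.16 (95% interval -0.60 to 0.93). Over the 10 genes, the 95% interval of the male CLP minus sham difference lay within 1 log2 unit of 0 for 6.

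In females, 0 of the 10 genes passed the test for CLP against sham (adjusted p under 0.01), against 4.21% of named genes. Junb alone had an unadjusted p under 0.05, 1 of 10 against 24.7% of named genes, and 0 of 10 had groups that did not overlap, against 9.36%. All 10 differences were positive, with a median of 0.41 beside -0.02 over all named genes. Without female sham replicate 1, 4 of 10 were positive, with a median of -0.08 and a range of -0.43 to 0.39. Again 0 passed, where 2.66% of named genes did.

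That heart decides the female values of Fos, Fosb and Atf3. Fos read 11.23, 13.79, 13.72, 13.92 and 13.77 in female sham and 13.83, 13.91, 14.51, 14.04 and 13.24 in female CLP. Apart from replicate 1, the sham hearts lay close together and inside the CLP range. The difference was 0.62 (SE 0.42, 95% interval -0.27 to 1.51), and 0.10 without that heart (95% interval -0.39 to 0.60). Fosb read 8.37, 13.07, 14.81, 14.23 and 13.69 in sham and 14.22, 14.50, 13.28, 14.55 and 13.85 in CLP, and its difference of 1.25 (95% interval -0.53 to 3.03) was 0.13 without replicate 1 (95% interval -0.53 to 0.79). Atf3 read 12.98, 16.33, 16.41, 16.38 and 16.41 in sham and 16.38, 16.12, 16.74, 16.06 and 16.33 in CLP. Its difference went from 0.62 to -0.06 (95% interval -0.49 to 0.37) when replicate 1 was left out.

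Junb was the female gene nearest to the threshold. It read 11.01, 11.58, 12.38, 12.04 and 12.40 in sham and 12.48, 12.66, 13.04, 12.24 and 12.02 in CLP, with 3 of the CLP hearts above every sham heart. The difference was 0.61 (1.52-fold, SE 0.25, 95% interval 0.08 to 1.13, adjusted p = 0.146), and 0.39 without sham replicate 1 (95% interval -0.06 to 0.84). The female Fosl2 difference, in the one gene that was not low in replicate 1, was 0.33 with and without it (95% interval -0.26 to 0.92 with it). The remaining differences were 0.49 for Fosl1, 0.29 for Ier3, 0.23 for Jun, 0.21 for Jund and 0.16 for Egr1. Without replicate 1 they became -0.43, -0.16, -0.20, -0.10 and -0.22.

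**Figure D2:**
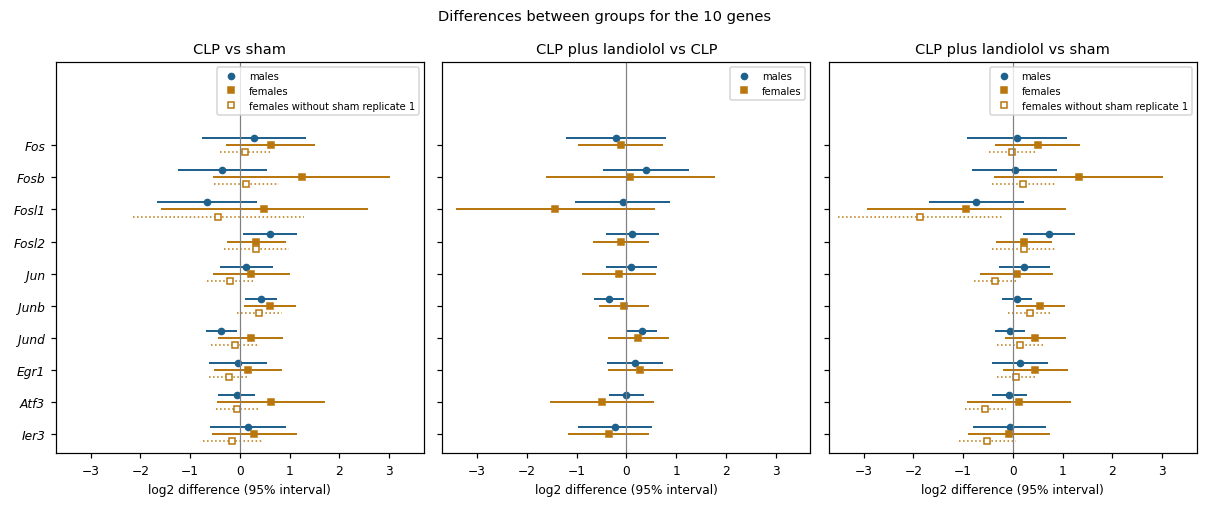
Log2 differences of the 10 genes between groups (horizontal axes) with 95% intervals, for CLP against sham, CLP plus landiolol against CLP and CLP plus landiolol against sham. Circles are males, filled squares females and open squares females without sham replicate 1. The female CLP minus sham values are all above 0 with that heart, and Fosb goes from 1.25 to 0.13 without it.

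CLP plus landiolol against CLP asks what the beta1-blocker did in septic hearts. In males, 0 of the 10 genes passed at an adjusted p under 0.05, against 1.77% of named genes, 2 of 10 (Junb and Jund) had an unadjusted p under 0.05, against 15.9%, and 0 of 10 had groups that did not overlap, against 2.58%. Junb ran from 12.03 through a median of 12.32 to 12.67 in the CLP plus landiolol hearts, and 5 of the 6 lay below every CLP heart. Its difference was -0.35 (SE 0.14, 95% interval -0.65 to -0.04, adjusted p = 0.271). Jund ran from 14.98 through 15.30 to 15.85, and its difference was 0.32 (SE 0.14, 95% interval 0.02 to 0.62, adjusted p = 0.309). Each therefore had the opposite sign to its CLP minus sham difference, which rests on the same 5 CLP hearts. Against sham, the male CLP plus landiolol hearts differed by 0.08 in Junb (95% interval -0.23 to 0.38) and -0.05 in Jund (95% interval -0.35 to 0.25).

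Atf3 ran from 15.49 through 15.70 to 15.80 in the male CLP plus landiolol hearts and differed from CLP by 0.00 (95% interval -0.35 to 0.35). Fos differed by -0.20 (95% interval -1.21 to 0.80) and Fosb by 0.39 (95% interval -0.46 to 1.25). The other differences were -0.23 for Ier3, 0.18 for Egr1, 0.12 for Fosl2, 0.10 for Jun and -0.08 for Fosl1. The signs of Egr1 and Fosl2 were not those of all their probes: the other Egr1 probe gave -0.03 and the other Fosl2 probes -0.18 and -0.14. Of the 10 genes, 6 had the same sign on both male slides, and the same share over all named genes was not computed.

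In females, 0 of the 10 genes passed for CLP plus landiolol against CLP (adjusted p under 0.05), against 0.0987% of named genes, 0 of 10 had an unadjusted p under 0.05, against 9.88%, and 0 of 10 had groups that did not overlap, against 1.32%. This comparison does not use the sham hearts. Fosl1, the gene with the widest spread, read 9.91, 5.80, 7.83, 8.03 and 8.62 in CLP and ran from 4.74 through a median of 7.11 to 8.32 in CLP plus landiolol, ranges that overlapped from 5.80 to 8.32. Its difference of -1.43 (SE 0.94, 95% interval -3.43 to 0.57, adjusted p = 0.690) is the largest of the 10. The Fosl1 probe was not well above background in CLP plus landiolol replicate 4, which is part of that difference. Atf3 ran from 15.39 through 15.83 to 16.31, and 3 of these hearts lay below every CLP heart. Its difference was -0.50 (95% interval -1.54 to 0.55). For Fos it was -0.12 (95% interval -0.97 to 0.74), for Fosb 0.08, for Fosl2 -0.11, for Jun -0.15, for Junb -0.05, for Jund 0.24, for Egr1 0.28 and for Ier3 -0.36.

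CLP plus landiolol against sham uses the same arrays as the comparisons above and is given beside them. In males, 0 of 10 passed at an adjusted p under 0.01, against 4.83% of named genes, 1 of 10 (Fosl2) had an unadjusted p under 0.05, against 25.4%, and 0 of 10 had groups that did not overlap, against 8.84%. Fosl2 ran from 9.11 through a median of 9.64 to 10.19 in these hearts and differed from sham by 0.73 (1.66-fold, SE 0.25, 95% interval 0.20 to 1.26, adjusted p = 0.0754). The other Fosl2 probes gave 0.64 and 0.58 (adjusted p = 0.227 and 0.291). Both male Fosl2 differences from sham, 0.61 in CLP and 0.73 in CLP plus landiolol hearts, rest on the same 5 sham hearts.

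In females, 0 of 10 passed against sham, beside 6% of named genes, a share that depends on a term for the row of the slide (1332 of 25394 probes passed without it and 20 with it). At an unadjusted p under 0.05 there was 1 of 10 (Junb), against 28.6%, and 0 of 10 had groups that did not overlap, against 10.9%. Junb differed by 0.55 (SE 0.24, 95% interval 0.05 to 1.05, adjusted p = 0.141), and by 0.34 without sham replicate 1 (95% interval -0.10 to 0.77). Fosb differed by 1.32 (95% interval -0.38 to 3.03) with that heart and by 0.21 without it. For Atf3 and Fosl1 the interval moved away from 0 when the heart was left out. Atf3 went from 0.12 to -0.56 (95% interval -0.97 to -0.14) and Fosl1 from -0.94 to -1.86 (95% interval -3.52 to -0.21). Neither passed without it, where 4.10% of named genes did. The Fosl1 values include CLP plus landiolol replicate 4, where its probe was not well above background.

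The sexes were compared through the difference between the female and the male effect. For CLP against sham, 0 of 10 genes passed at an adjusted p under 0.05, as did 0% of named genes, and 0 of 10 had an unadjusted p under 0.05, against 3.66%. Fosb gave 1.61 (female effect minus male effect, 95% interval -0.40 to 3.63) and Jund 0.57 (95% interval -0.13 to 1.27). Without female sham replicate 1 they were 0.49 and 0.26, and the 10 values ran from -0.34 to 0.49. For CLP plus landiolol against CLP, 0 of 10 passed, as did 0% of named genes, and 0 of 10 had an unadjusted p under 0.05, against 4.76%. The 10 values ran from -1.36 (Fosl1, 95% interval -3.59 to 0.88) to 0.30 (Junb, 95% interval -0.28 to 0.87). The interval of the difference between the sexes lay within 1 log2 unit of 0 for 1 of the 10 genes in CLP against sham and for 4 of 10 in CLP plus landiolol against CLP.

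In males, and in females with sham replicate 1, the hearts of a group differed from each other more in most of these genes than in the median gene. In males the within-group SD was 0.845 for Fos, at the 95.7th percentile of 16475 named genes, 0.807 for Fosl1 and 0.720 for Fosb. The lowest were 0.227 for Jund and 0.229 for Junb. The median over the 10 genes was 0.447, beside 0.324 over all named genes, and 7 of 10 lay above the latter. That count is not far from an even split, and many of the 10 genes correlated with each other. Above the upper quartile of named genes lay 4 of 10 in males, 7 of 10 in females and 1 of 10 in females without sham replicate 1. In females all 10 lay above the median of named genes (0.656 for the 10, 0.357 for all), with Fosl1 at 1.72 and Fosb at 1.46. Without sham replicate 1, 4 of 10 did (0.347 and 0.356), and the SD of Fos was 0.353 and that of Atf3 0.297, against 0.723 and 0.890 with it. Fosl1 kept an SD of 1.33, a percentile of 99.2, with its probe not well above background in CLP plus landiolol replicate 4.

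**Figure D3:**
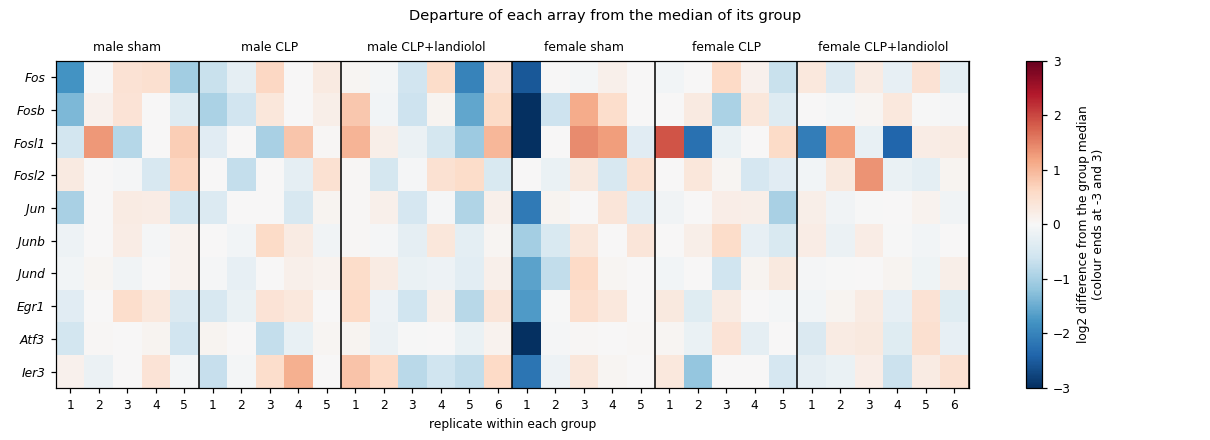
Log2 difference of each heart from the median of its group (colour, blue lower and red higher, ends at -3 and 3) for the 10 genes (rows) and 32 hearts (columns, by group and replicate). Female sham replicate 1 is blue in 9 of the 10 rows, and male sham replicates 1 and 5 and male CLP plus landiolol replicate 5 are blue for Fos, Fosb and Jun.

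Female sham replicate 1 was the lowest of the 16 female hearts for 9 of the 10 genes, all except Fosl2. Its log2 difference from the median of the other 4 sham hearts was -5.59 for Fosb, -4.68 as measured for Fosl1, whose probe was not well above background there, -3.41 for Atf3, -2.56 for Fos, -2.21 for Ier3 and -2.17 for Jun. Egr1 was at -1.87, Jund at -1.63 and Junb at -1.20, whereas Fosl2 was at -0.05. The same heart was low in other immediate early genes. Of the 35 in a list of their usual names, it was the lowest sham heart for 26, beside 21.8% of all named genes, and more than 1 log2 unit below for 19, beside 4.32%.

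Among these other genes Egr3 and Egr2, zinc finger relatives of Egr1, were at -5.10 and -4.39 in that heart. The Egr3 probe was not well above background there, and with the lowest level measured above background on that array in its place the value is -4.72. Cyr61, a matricellular gene that stretch induces, was at -3.45, Ptgs2, which encodes cyclooxygenase-2, at -3.05, and the nuclear receptor gene Nr4a1 at -2.42. In contrast Per1, a clock gene, was at 0.69, and Sik1 and Klf10 were at 0.28 and 0.25. Over all named genes the median difference was 0.00, and the array correlated with its group at a mean r of 0.975, in the range of the other 4. Ventricular cardiomyocyte markers averaged 17.83 in it, beside 17.47 to 17.81 in the others, endothelial markers 12.56 beside 12.76 to 13.34, smooth muscle markers 8.29 beside 8.35 to 9.75, neutrophil markers 4.50 beside 2.64 to 4.26, and the erythroid markers Hbb and Hba1 8.04 beside 6.77 to 7.49. Atrial, fibroblast, macrophage and lymphocyte markers lay within the range of the other sham hearts. The array had the most probes well above background of the 16 female arrays, 26447 of 45598. What part any of these had was not tested.

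**Figure D4:**
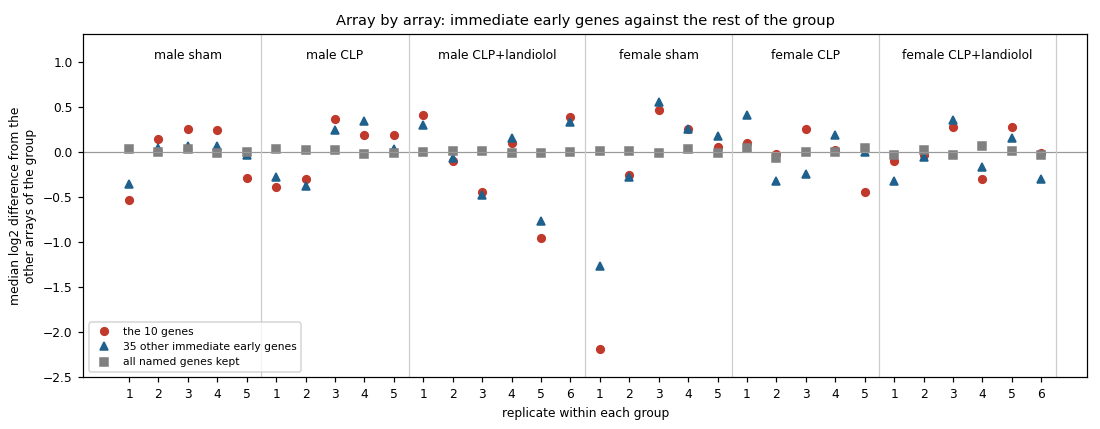
Median log2 difference of each heart from the median of the other hearts of its group (vertical axis), by group and replicate, for the 10 genes (circles), 35 other immediate early genes (triangles) and all named genes kept (squares). Female sham replicate 1 lies at -2.19 for the 10 genes and -1.27 for the 35, male CLP plus landiolol replicate 5 at -0.95 and -0.77, while all named genes stay near 0.

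A smaller shift of the same sign was seen in males. CLP plus landiolol replicate 5 was the lowest of its group for 8 of the 10 genes, beside 30.4% of all named genes. It lay more than 1 log2 unit below the others for 4 of the 10, beside 8.39%. Its median was -0.95 against the other hearts of its group, and -0.77 for the 35 other immediate early genes. Its Fos level was 11.38 where the other 5 hearts ran from 12.80 to 13.93. Sham replicate 1, at 11.63 for Fos, had medians of -0.54 and -0.36. It was the lowest of its group for 4 of the 10 genes, beside 31.1% of all named genes. Its array had the lowest mean r with its group among the male sham arrays, 0.969. These hearts came from different groups. The array of CLP plus landiolol replicate 5 had the fewest probes well above background of all 32, 22944, and the lowest mean r with its group among males, 0.965, and the part of this was not tested.

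Many of the genes correlated from heart to heart. As a description over the 16 male hearts, after subtracting group means, 34 of the 45 pairs among the 10 genes correlated above 0, with a median r of 0.37. The same share over pairs of other named genes was not computed. Among Fos, Fosb, Jun and Egr1 the 6 pairs ran from 0.74 to 0.91. Jun, Fosb and Egr1 are also the members that rank highest in likeness to Fos in these same hearts, so the high values among them are no separate result. Fos and Jun gave r = 0.91 and rho = 0.84, and r = 0.82 without the 2 hearts farthest from the median of Fos. Fos and Fosb gave 0.90, 0.81 and 0.78 in the same order, and Fos and Egr1 0.84, 0.79 and 0.82. In females the 6 pairs ran from 0.81 to 0.94 with sham replicate 1 and from -0.15 (Fos and Fosb) to 0.75 (Fos and Jun) over the 15 hearts without it. The points of each sex share slides and a normalisation.

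Over all 15869 other named genes tested in both sexes, those most like Fos in level over the 16 male and the 16 female hearts (mean of both r, group means not subtracted) were Jun (0.90), Btg2 (0.88), Fosb (0.83), Egr1 (0.82) and Adamts1 (0.80). Btg2 encodes an immediate early antiproliferative factor and Adamts1 a secreted protease. Without sham replicate 1 the female r was 0.68 for Jun, 0.73 for Btg2, -0.15 for Fosb, 0.31 for Egr1 and 0.53 for Adamts1. Of the other members, Junb ranked 26, Atf3 55, Ier3 100, Jund 1677, Fosl1 2670 and Fosl2 8528. These ranks also lean on that heart: the female r with and without it was 0.80 and 0.51 for Junb, 0.87 and 0.29 for Atf3, 0.74 and 0.25 for Ier3, 0.56 and -0.50 for Jund, 0.44 and -0.13 for Fosl1, and 0.15 and 0.11 for Fosl2. The median gene had an r with Fos of -0.03 in males and -0.01 in females.

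Around the 10 genes, 4 lists were counted: 18 upstream kinases and factors that switch AP-1 on, 20 other bZIP proteins that can pair with or compete with AP-1, the 35 other immediate early genes and 16 genes commonly named as AP-1 targets. Of these, 17, 20, 35 and 13 had a probe kept in each sex. In male CLP against sham, 1 of the 17 upstream genes rose and 1 fell, beside 8.88% of all named genes called. Mapk14, the p38 stress kinase, rose by 1.26 (SE 0.21, adjusted p = 0.000746), and Elk3, a ternary complex factor, fell by 0.75 on the log2 scale (SE 0.14, adjusted p = 0.00225), a call lost with the 2 groups alone. The median of the list was -0.15.

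Of the 20 other bZIP genes, 4 rose and 1 fell in male CLP against sham, beside 8.88% of all named genes called. The list median was 0.30 beside -0.01 over all named genes. Crem, whose products include the cyclic AMP-induced repressor ICER, ran from 11.27 to 12.15 in sham and from 12.72 to 13.34 in CLP hearts, which did not overlap. It rose by 1.31 (SE 0.18, adjusted p = 0.000216). Cebpb (0.67), Atf6 (0.58) and Nfe2l2 (0.53), factors of the acute phase, unfolded protein and oxidative stress responses, also rose, and Ddit3, the stress factor CHOP, fell by 1.31 (SE 0.25, adjusted p = 0.00216). The calls of Cebpb and Ddit3 were lost with the 2 groups alone, and that of Nfe2l2 in 6 of 9 alternatives. The immediate early list had 0 of 35 up and 2 down: Klf10 fell by 1.31 (SE 0.29, adjusted p = 0.00538) and Gadd45b by 0.90 (SE 0.21, adjusted p = 0.00790). Neither passed with no filter on dim probes or with the 2 groups alone, and 2 of 35 is below the 8.88% of all named genes.

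Of the 13 targets, Hmox1, which encodes heme oxygenase-1, rose and Ccnd1, which encodes cyclin D1, fell against sham in both sexes. Hmox1 ran from 10.79 to 11.62 in male sham and from 13.19 to 14.51 in male CLP hearts, a rise of 2.91 (SE 0.28, adjusted p = 1.09e-05), and it rose by 3.16 in females (SE 0.44, adjusted p = 0.000392). Ccnd1 had a median of 10.06 in male sham and 7.54 in male CLP hearts, which did not overlap, and fell by 2.47 (SE 0.24, adjusted p = 1.37e-05). In females it fell by 2.23 (SE 0.33, adjusted p = 0.000587). These were the only genes of the 4 lists that passed in female CLP against sham. Over all named genes the share was 4.21%. Female Crem differed by 0.73 (SE 0.31, adjusted p = 0.164), although its groups did not overlap (11.26 to 12.40 in sham, 12.41 to 13.24 in CLP). Both targets also answer to factors other than AP-1.

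With landiolol against CLP in males, Crem fell by 1.35 (SE 0.18, adjusted p = 0.00249) to a range of 11.31 to 12.05, Hmox1 fell by 1.75 (SE 0.27, adjusted p = 0.00496), and Ctgf, an early matricellular gene, rose by 1.38 (SE 0.31, adjusted p = 0.0368). These were 1 of 20, 1 of 13 and 1 of 35 genes of their lists, and 0 of 17 upstream genes passed, beside 1.77% of all named genes. Ctgf did not pass with no filter, with the 2 groups alone or with row of the slide in the model. In females 0 genes of the 4 lists passed, with Crem at -1.24 (SE 0.30, adjusted p = 0.136, 10.53 to 12.40 in CLP plus landiolol hearts, all below the CLP hearts) and Ctgf at 1.42 (SE 0.40, adjusted p = 0.210). The female minus male differences of these effects were 0.11 for Crem (SE 0.35) and 0.07 for Ctgf (SE 0.53), and 0 genes of the lists passed for either difference between the sexes.

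Against sham, the CLP plus landiolol hearts of males had Batf, a bZIP gene of immune cells, higher by 1.93 (SE 0.29, adjusted p = 0.000695) and Ccnd1 lower by a difference of -1.89 (SE 0.23, adjusted p = 0.000136). Both neutrophil markers kept rose in the same comparison, by 3.72 and 5.24 from a mean sham level near background, and their part in the Batf value was not tested. In females Maf rose by 0.61 (SE 0.12, adjusted p = 0.00444), Hmox1 rose by 1.87 (SE 0.42, adjusted p = 0.00794) and Ccnd1 fell by 1.75 (SE 0.31, adjusted p = 0.00185). None of these 3 passed with row of the slide in the model (0.38 for Maf, 2.26 for Hmox1 and -1.27 for Ccnd1), whereas Hmox1 and Ccnd1 in female CLP against sham still did (3.32 and -2.04).

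**Figure D5:**
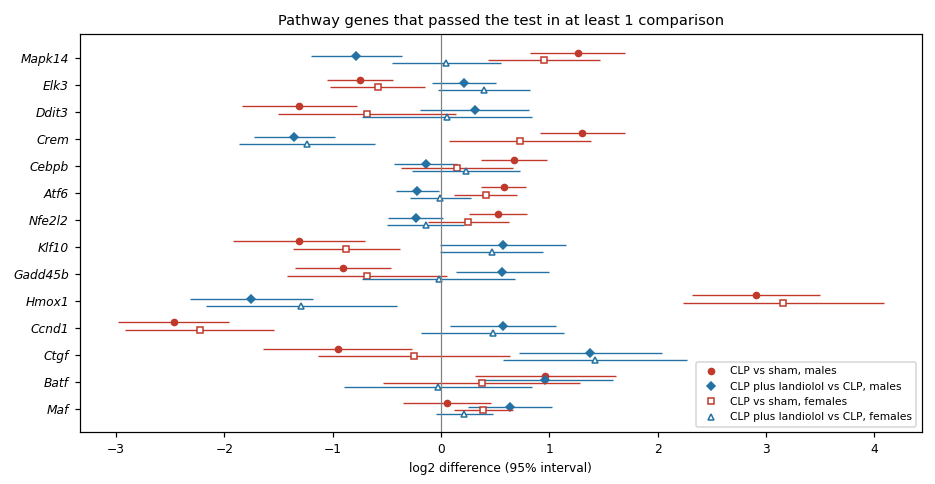
Log2 differences with 95% intervals (horizontal axis) for the 14 genes of the 4 lists that passed the test in at least 1 comparison. Red marks CLP against sham, blue CLP plus landiolol against CLP, with filled symbols for males and open symbols for females. Hmox1 lies at 2.91 and 3.16 and Ccnd1 at -2.47 and -2.23 for CLP against sham, while Crem lies at 1.31 and then -1.35 in males.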

How the data were processed

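RNA of 32 left ventricles was hybridised to 1-colour Agilent rat arrays of 62976 spots. By the study's methods the authors extracted scanner files with Agilent Feature Extraction 10.5. The file headers name the protocol GE1_107_Sep09 for female slide 1, which held female sham replicate 1. They name GE1_105_Dec08 for female slide 2 and the male slides. In females, protocol and slide therefore cannot be told apart. The processed signal used is, per the file headers, an intensity already background-corrected by that software. The deposited value table holds the authors' log2 values (column medians 9.62 to 9.71, r of 0.994 to 0.998 with the log2 processed signal of the same spots, without centring of genes) and served as an alternative. By the study's methods it was quantile-normalised and filtered on detection, and it is filled for 38223 probes in males and 37605 in females.

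Control spots and spots with outlier flags were dropped, replicate spots averaged on the log2 scale, and the 16 arrays of a sex quantile-normalised. Probes well above background on 80% of the arrays of at least 1 group were kept (25864 in males, 25394 in females). The number of arrays limits the precision. Groups came from the GEO labels. Tests were limma 3.58.1 in R 4.3.3 (lmFit and eBayes, 3 groups of a sex), adjusted by Benjamini-Hochberg over all probes kept, at 0.01 against sham and 0.05 otherwise. The differences between sexes used all 32 arrays normalised together. The significance analysis of microarrays used in the study was not run. All 10 genes are named, each by its probe of highest mean, and at most 5 passing genes of a list by size of difference. Percentages of named genes use 1 probe per gene. Alternatives were another normalisation, background correction or filter, slide as a term, the value table, other samples in the fit and leaving out each array. Row of the slide as a term (probes called in female CLP plus landiolol against sham, 1332 without and 20 with it), and the list counts without female sham replicate 1, were added after seeing the data. The members and lists were chosen with earlier results of these data known. The scripts were tested on simulated data.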

Additional observations from a re-analysis of the deposited data

Results flagged for a closer look

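The 60 sets of values (10 genes in 6 groups of 5 or 6 hearts) were searched for a heart that stood apart, as the gap to its neighbour over the range of the group, against Dixon's 95% value. For independent, normally distributed values about 1 in 20 such sets would exceed it. Here 9 of 60 did, 6 of them through the same heart. The sets share hearts and many of the 10 genes vary together, so 9 of 60 is no measure of an excess. The share over all named genes was not computed. Female sham replicate 1 was the lowest of its group with a gap over range of 0.925 for Fos, 0.729 for Fosb, 0.731 for Jun, 0.763 for Egr1, 0.977 for Atf3 and 0.809 for Ier3. The Jun level of female CLP replicate 5, at 14.34 where the others lay between 15.20 and 15.50, gave 0.740. On the high side, female CLP plus landiolol replicate 4 gave 0.696 for Fosb and replicate 3 gave 0.644 for Fosl2 (10.57 where the others reached 9.52).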

How the results depend on the processing

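The count of the 10 genes that passed was 0 in all 8 comparisons under every alternative that was run. In male CLP against sham, the smallest adjusted p from limma over the alternatives was 0.0340 for Junb and 0.0442 for Jund. For Fosl2 in male CLP plus landiolol against sham it was 0.0481. These lie under 0.05 but not under the 0.01 set against sham. The level of 0.05 was tried against sham on the reported fit only, where 0 passed. Of 2240 single-gene values under an alternative, 0 passed, 85 changed sign without a pass on either side, and 3 moved by more than the within-group SD. Those were Junb (1.15) and Fosl2 (0.77) in female CLP plus landiolol against sham with the row of the slide in the model, and Atf3 in the sex difference for CLP against sham without female sham replicate 1 (0.01). The SD was that of all arrays, which this heart widens in females (Fosb 1.46 with it and 0.490 without, Atf3 0.890 and 0.297). In female CLP against sham, Fosb went from 1.25 to 0.13 and Atf3 from 0.62 to -0.06 without the heart, and neither counted as moved. The count of 3 is therefore a lenient measure for its removal. The 5 female sham arrays lay in row 1 and the 6 female CLP plus landiolol arrays in row 2, so there row and group cannot be told apart except through the CLP arrays. With row in the model the probes that passed went from 1332 to 20 in that comparison, from 923 to 337 in female CLP against sham and from 24 to 1 in female CLP plus landiolol against CLP, of 25394, and in males from 1074 to 943, 2020 to 1758 and 403 to 313. Counts over the gene lists were small and moved. In male CLP against sham the other immediate early genes went from 2 to 0 with no filter or with the 2 groups alone and to 1 with slide in the model, and the bZIP genes from 5 to 2 with the 2 groups alone. The upstream genes went from 2 to 1 with the 2 groups alone and to 4 in the value table. In male CLP plus landiolol against CLP, the other immediate early genes went from 1 to 0 with no filter and with the 2 groups alone. The upstream genes there went from 0 to 1 with scaling to the 75th percentile and with normexp. In male CLP plus landiolol against sham, the upstream genes went from 0 to 2 in the value table, the targets from 1 to 2 with normexp and the bZIP genes from 1 to 2 with the 2 groups alone. In female CLP plus landiolol against sham, the upstream genes went from 0 to 1 with normexp, and the targets went from 2 to 1 with no filter, in the value table and without sham replicate 1. With row in the model the female bZIP genes went from 1 to 0 and the targets from 2 to 0 there, and in males the other immediate early genes went from 2 to 1 in CLP against sham and from 1 to 0 in CLP plus landiolol against CLP, and the targets from 1 to 2 in CLP plus landiolol against sham. The causes were not tested. No paired analysis was possible because the labels give no replicate numbers that tie animals of different groups. In females the intervals of Fosl1 and Fosb were the widest, up to 2.09 on either side of the estimate in female CLP against sham. These intervals are not adjusted for the number of probes, whereas the test used an adjusted p under 0.01. The width is therefore no detection limit, and Fosl1 differences of that size or smaller could have been missed there. In males the widest interval of CLP against sham was that of Fos, 1.05 on either side.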
